A study of Mus musculus with 8 samples.

Results

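The genes described here make, bind and sense retinoic acid: the retinal reductase Dhrs3, the retinal dehydrogenases Aldh1a1 and Aldh1a2, the binding proteins Crabp1, Crabp2 and Fabp5, and the receptors Rara, Rarb and Rarg. The genes were chosen with earlier results of these data known. Every probe set that the platform annotation assigns to 1 of these symbols alone was kept, whatever its values. This gave 11 probe sets for 9 genes, out of 22626 probe sets that were not controls and 12393 genes in all. Fabp5 and Rarg have 2 probe sets each. On the array, 7 of the 11 probe sets, for 5 genes, were bright enough to be tested, and the probe sets of Aldh1a2, Crabp1, Crabp2 and Rarb were not.

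The samples were TTE3 cells, an established mouse Sertoli cell line from transgenic mice with a temperature-sensitive form of simian virus 40 large T-antigen. The 4 groups were cells after 0, 6, 12 and 24 h at 39 °C, the temperature that does not permit T-antigen function, with 2 samples per time and 1 Affymetrix Mouse 430A array per sample. All groups carry the same transgene, and hours in culture, heat and the state of the T-antigen change together, so that they cannot be told apart here. Nothing in the labels tells if such a pair of samples came from different cultures. The p-values therefore rest on the spread between samples of the same time, pooled over the 4 times, and that spread may be technical.

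Retinol enters cells and is oxidised to retinal and then, irreversibly, to retinoic acid, while retinal reductases return retinal to retinol. Retinoic acid is carried in the cytosol by small binding proteins and acts through retinoic acid receptors, which pair with retinoid X receptors on DNA. In the testis retinoic acid is needed for germ cells to enter differentiation and meiosis, and Sertoli cells both make it and respond to it.

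Values are probe set intensities in the deposited scale, in which arrays have been brought to a common mean. Tests used log2(intensity + 22), and changes on the log2 scale are on that transformed scale, with the standard error of the fit after ±. A probe set was called where limma's p, adjusted by Benjamini-Hochberg over 13576 tested probe sets, was under 0.05. Levels of different probe sets are not set against each other, since probes differ in brightness. Array medians ran between 138.5 and 154.7 intensity units, arrays of 1 time correlated with r between 0.979 and 0.986 across probe sets, and arrays of different times with r between 0.967 and 0.979. In RNA from a whole culture, a change in the share of cells that express a gene and a change in RNA per cell cannot be told apart.

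Over the 24 h, Fabp5 fell (to 34.2% and 26.9% of its 0 h intensity in its 2 probe sets), Dhrs3 rose (to 630%), and no probe set of the other tested genes, Aldh1a1, Rara and Rarg, passed the test at 24 h against 0 h. In the F-test for any change over the 4 times, 3 of 7 tested retinoid probe sets were called, both of Fabp5 and that of Dhrs3, against 40.1% of all tested probe sets. At 24 h against 0 h the same 3 were called, 1 higher and 2 lower, where 32.9% of all tested probe sets were called, 17.1% higher and 15.8% lower. A count of 3 in 7 is near these shares, so the number called is no result about the retinoid genes. The median change of the 7 was 0.09 on the log2 scale, beside 0.02 over all tested probe sets.

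**Figure D1:**
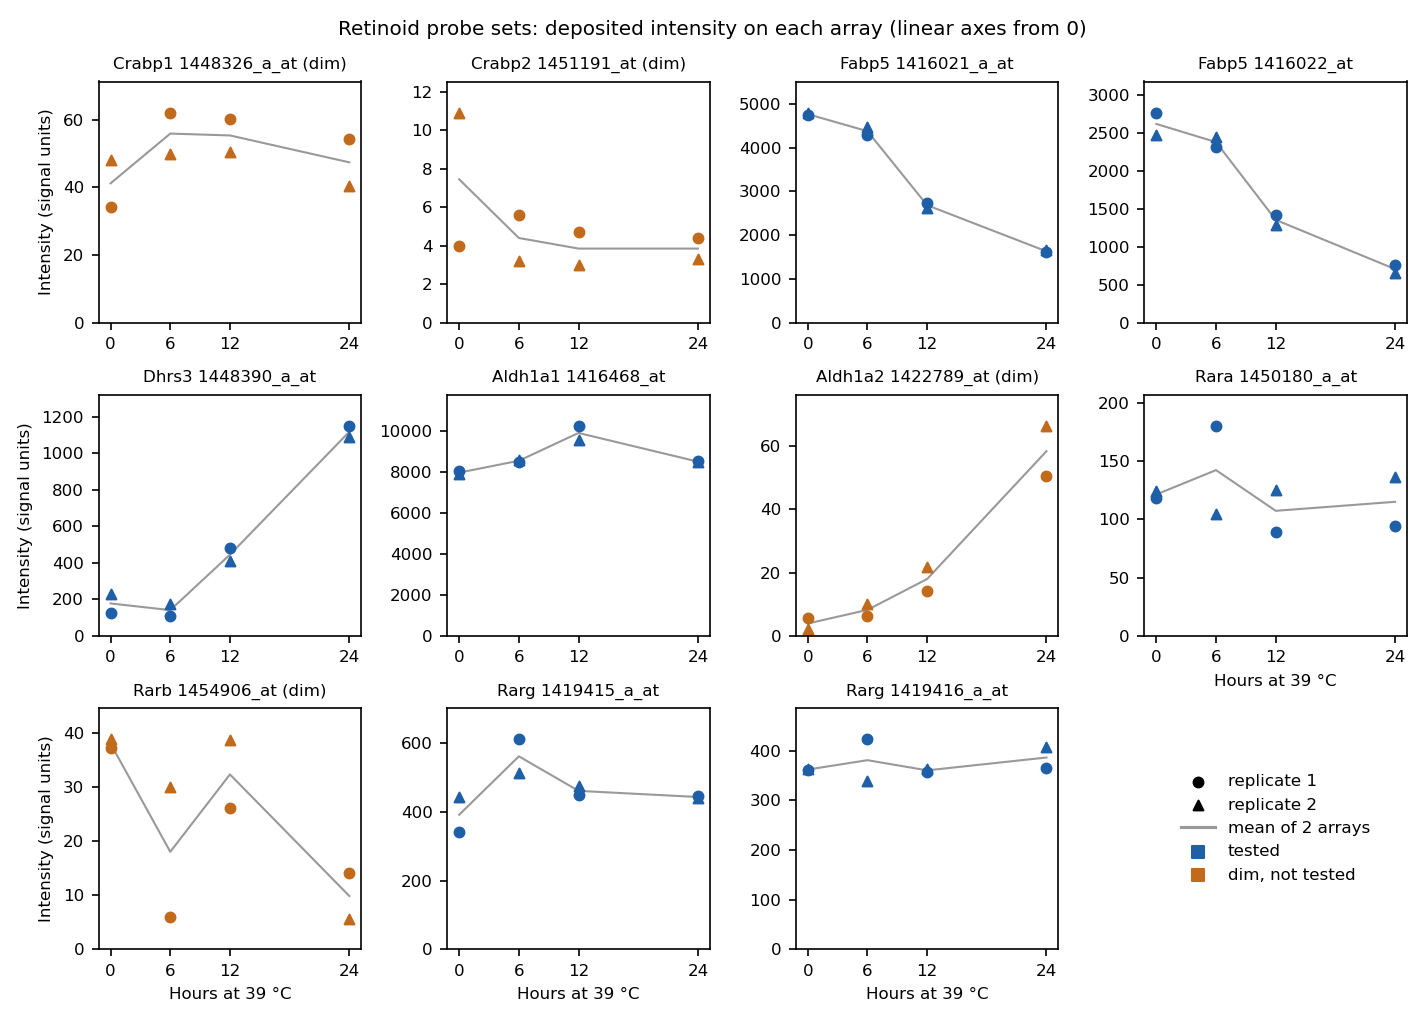
Intensity of each of the 11 probe sets (vertical axes, linear, in the deposited scale, each starting at 0) against hours at 39 °C, with 1 point per array and lines through the means of the 2 arrays. Dhrs3 and Aldh1a2 are highest at 24 h, both probe sets of Fabp5 are lowest at 24 h, and Aldh1a1 is highest at 12 h.

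Of the enzymes, Dhrs3 rose after 6 h, Aldh1a1 was modestly higher at 12 h and not called at 24 h, and Aldh1a2 was dim at every time with its highest intensities at 24 h. Dhrs3 (chr4:144892534-144928209, GRCm38.p6) encodes a membrane-bound short-chain dehydrogenase that reduces retinal to retinol and so limits the retinal available for retinoic acid synthesis. Retinoic acid itself is known to induce Dhrs3 in many cell types. A start of Dhrs3 from the RefSeq promoter table, inside the span given above, is shown with the start of Aldh1a2, since these are the enzymes whose intensity was highest at 24 h. Each window holds 250 bases before and 50 after an annotated start on the + strand, as chr4:144892577-144892876 for Dhrs3 and chr9:71215539-71215838 for Aldh1a2.
Dhrs3: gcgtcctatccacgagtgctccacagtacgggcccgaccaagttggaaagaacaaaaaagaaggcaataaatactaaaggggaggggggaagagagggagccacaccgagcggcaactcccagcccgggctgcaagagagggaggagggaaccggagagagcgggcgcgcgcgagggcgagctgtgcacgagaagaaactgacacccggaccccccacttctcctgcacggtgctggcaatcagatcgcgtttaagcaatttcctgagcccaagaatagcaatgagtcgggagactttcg
Aldh1a2: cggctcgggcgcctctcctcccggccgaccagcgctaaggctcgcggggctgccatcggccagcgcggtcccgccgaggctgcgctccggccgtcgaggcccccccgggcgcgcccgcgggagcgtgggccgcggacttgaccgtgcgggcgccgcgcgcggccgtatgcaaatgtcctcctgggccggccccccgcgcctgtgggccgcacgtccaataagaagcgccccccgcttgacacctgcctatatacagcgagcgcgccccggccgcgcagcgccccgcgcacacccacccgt
Both are in lower case throughout because neither holds any of the 4 motifs searched on both strands, which were direct repeats of the receptors' core hexamer with 5, 2 or 1 bases between them (DR5, DR2 and DR1) and the p53 site. RefSeq windows were found for 7 of the 9 genes, all but Fabp5 and Crabp2, with 14 windows in all.

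Dhrs3 had intensities of 123.7 and 231.0 at 0 h, 107.6 and 174.2 at 6 h, 480.6 and 408.8 at 12 h, and 1147.7 and 1086.2 at 24 h. The 0 and 6 h arrays overlapped, both 12 h arrays lay above all of them, and both 24 h arrays lay higher again. The means were 177 ± 75.9, 141 ± 47.1, 445 ± 50.8 and 1117 ± 43.5 (SD, n = 2 each) in order of time, the 24 h mean being 630% of the 0 h mean. The spread at 0 h was wide for this gene, 1 array reading nearly double the other.

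Dhrs3 was 2.57 ± 0.25 higher on the log2 scale at 24 h than at 0 h (5.93-fold, limma adjusted p = 2.623e-05), with both 24 h arrays above both 0 h arrays. At 12 h it was 1.28 ± 0.25 higher than at 0 h (2.42-fold, limma adjusted p = 0.00376). At 6 h the difference from 0 h was -0.27 ± 0.25 and did not pass (limma adjusted p = 0.497). Dhrs3 thus rose after 6 h: 12 h was 1.55 ± 0.25 above 6 h (limma adjusted p = 0.00535). The further rise at 24 h over 12 h, 1.29 ± 0.25, was called with an adjusted p of 0.0136 in limma, but that call was lost when any 1 of the 12 h or 24 h arrays was left out (adjusted p 0.0502 to 0.1005) and without a variance trend (0.0519). The rise at 24 h over 0 h was called under each of the 17 alternatives, with values between 2.17 and 2.97.

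Aldh1a1 (chr19:20492583-20643463) encodes a cytosolic retinal dehydrogenase, the form of the enzyme found in Sertoli cells. Its intensities were 8028.0 and 7886.7 at 0 h, 8484.5 and 8587.8 at 6 h, 10221.4 and 9558.8 at 12 h, and 8501.0 and 8483.9 at 24 h. Both 12 h arrays were the highest of the 8 and both 0 h arrays the lowest, with the 6 h and 24 h arrays close together between them. At 12 h Aldh1a1 was 0.31 ± 0.09 higher than at 0 h on the log2 scale (1.24-fold, limma adjusted p = 0.0216), and 24 h differed from 0 h by 0.09 ± 0.09 (limma adjusted p = 0.441, 95% interval -0.09 to 0.28). The call at 12 h was lost under 7 of 17 alternatives, among them centring arrays on their medians (adjusted p = 0.08) and leaving out any of the 0 h or 12 h arrays (0.0507 to 0.142). The F-test over the 4 times gave Aldh1a1 an adjusted p of 0.0539 in limma.

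Aldh1a2 (chr9:71215789-71296243) encodes the retinal dehydrogenase that supplies retinoic acid in most embryonic tissues. All 8 of its intensities lay under the level required for testing, which was a mean of about 74.1 intensity units: 5.5 and 2.3 at 0 h, 6.4 and 10.0 at 6 h, 14.1 and 21.8 at 12 h, and 50.4 and 66.2 at 24 h. The arrays of each time nevertheless lay above all arrays of the times before. Detection calls were not used here, so whether the 0 h values stand above background is not known, and no fold is given. When all 22626 probe sets entered the fit, an alternative in which 16.8% were called at 24 h against 0 h, Aldh1a2 was called higher at 24 h (limma adjusted p = 0.00216). In that fit 12 h against 0 h did not pass (limma adjusted p = 0.16). Among the 9050 dim probe sets, 2.46% were called there at 24 h against 0 h, in either direction. Aldh1a2 was chosen with earlier results of these data known, so neither share makes a test of it.

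Of the binding proteins, Fabp5 fell steeply and the 2 cellular retinoic acid binding proteins were dim at every time. Fabp5 (chr3:10012585-10016610) is an epidermal-type fatty acid binding protein that also carries retinoic acid, and it is known to pass its ligand to the receptor PPAR delta. Its probe set 1416021_a_at had intensities of 4735.1 and 4790.4 at 0 h, 4283.1 and 4465.0 at 6 h, 2740.0 and 2625.2 at 12 h, and 1603.0 and 1654.0 at 24 h. Its probe set 1416022_at had 2760.1 and 2471.1 at 0 h, 2309.6 and 2442.7 at 6 h, 1414.6 and 1290.7 at 12 h, and 757.5 and 651.6 at 24 h. In both probe sets the arrays of each time lay below all arrays of the times before. At 24 h the means stood at 34.2% and 26.9% of their 0 h means, and at 12 h at 56.3% and 51.7%.

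The fall of Fabp5 was called from 12 h on. At 6 h both arrays of each probe set were already the lower ones, but the differences from 0 h, -0.12 ± 0.09 and -0.14 ± 0.11 on the log2 scale, did not pass (limma adjusted p = 0.363 and 0.433). At 12 h Fabp5 was lower than at 0 h by -0.82 ± 0.09 in 1416021_a_at (limma adjusted p = 0.000109) and by -0.94 ± 0.11 in 1416022_at (limma adjusted p = 0.000213). At 24 h the differences from 0 h had grown to -1.54 ± 0.09 (limma adjusted p = 9.169e-07) and -1.86 ± 0.11 (limma adjusted p = 1.175e-06). The steps between neighbouring times were of like size: 12 h was below 6 h by -0.70 and -0.80, and 24 h below 12 h by -0.71 and -0.92, with limma adjusted p between 0.00132 and 0.00229. Fabp5 kept these calls under each of the 17 alternatives, with the 24 h difference between -1.64 and -1.50 in 1416021_a_at and between -1.97 and -1.76 in 1416022_at. RefSeq lists 1 copy named after Fabp5, and the part of the signal that could come from that copy was not tested.

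The probe sets with a time course most like that of Fabp5 1416021_a_at, among 12551 tested probe sets of other genes, were those of Rpl7l1 (r = 0.996), Capn2 (r = 0.996), Mettl1 (r = 0.994), Eif2s2 (r = 0.991) and Rpp30 (r = 0.991). The measure was Pearson's r of log2 values over the 8 arrays, which share 4 times, so it describes a common course over time and is given without a test. Their mean changes from 0 h to 24 h on the log2 scale were between -1.14 (Eif2s2) and -0.64 (Rpl7l1). Eif2s2 encodes a subunit of a translation initiation factor, Rpp30 a subunit of ribonuclease P, Mettl1 a tRNA methyltransferase, and Capn2 the large subunit of a calcium-dependent protease.

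Crabp1 (chr9:54764748-54773110) and Crabp2 (chr3:87948693-87953372) encode the cytosolic carriers of retinoic acid, Crabp2 being the carrier known to pass it to retinoic acid receptors. Crabp1 had intensities of 34.2 and 48.2 at 0 h, 62.0 and 49.8 at 6 h, 60.1 and 50.6 at 12 h, and 54.4 and 40.4 at 24 h, all dim and overlapping between 24 h and 0 h. Crabp2 had 4.0 and 10.9 at 0 h, 5.6 and 3.2 at 6 h, 4.7 and 3.0 at 12 h, and 4.4 and 3.3 at 24 h, with overlap at every time. With all probe sets in the fit, the F-test over the 4 times gave adjusted p = 0.789 for Crabp1 and 0.876 for Crabp2 in limma, where 19.2% of all probe sets were called. These p-values do not show that either gene was unchanged.

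**Figure D2:**
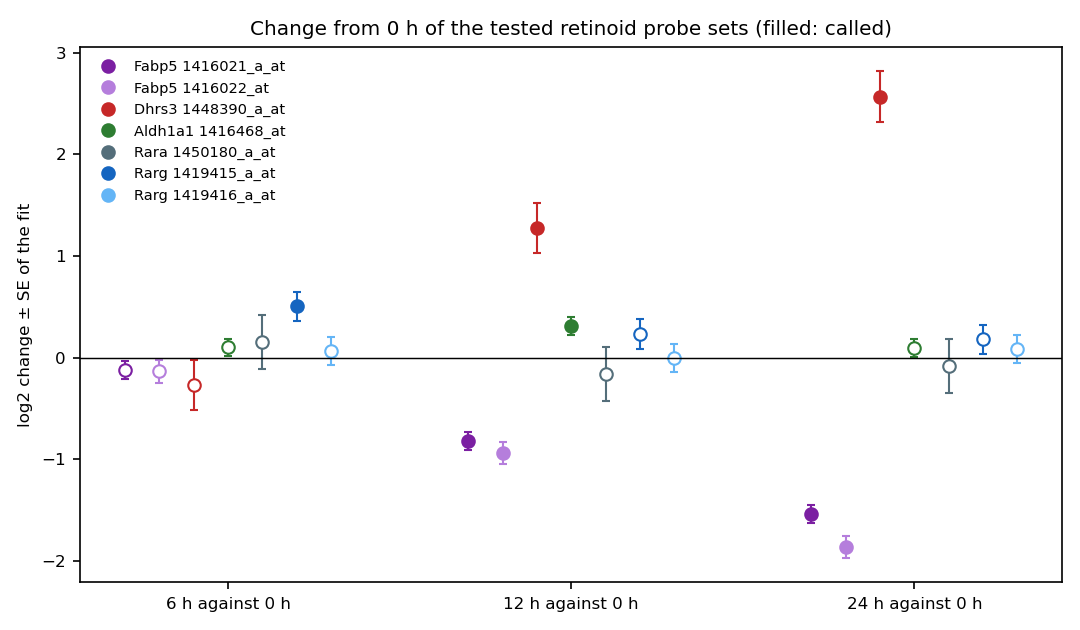
Change of each tested retinoid probe set from 0 h on the log2 scale (vertical axis, with bars for the standard error of the fit) at 6, 12 and 24 h, with filled points where the change was called. Dhrs3 reaches 2.57 and the 2 probe sets of Fabp5 reach -1.54 and -1.86 at 24 h, while Aldh1a1, Rara and Rarg lie between -0.08 and 0.18 at 24 h and are not called.

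Of the receptors, Rara and Rarg were bright enough to test and were not called at 24 h, 1 probe set of Rarg was higher at 6 h, and Rarb was dim. Rara (chr11:98927800-98974942), the receptor through which Sertoli cells are known to respond to retinoic acid, had intensities of 118.8 and 124.2 at 0 h, 180.1 and 104.6 at 6 h, 89.5 and 125.3 at 12 h, and 94.2 and 136.1 at 24 h. The arrays of every later time spread to both sides of those at 0 h. At 24 h Rara differed from 0 h by -0.08 ± 0.27 on the log2 scale (limma adjusted p = 0.848), with a 95% interval of -0.67 to 0.50 that leaves room for a moderate change in either direction.

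Rarg (chr15:102234938-102257522), known from differentiating spermatogonia and epithelia, was read by 2 probe sets. Probe set 1419415_a_at had intensities of 341.7 and 442.3 at 0 h, 611.8 and 513.0 at 6 h, 448.2 and 475.1 at 12 h, and 447.0 and 440.4 at 24 h. Probe set 1419416_a_at had 361.1 and 363.3 at 0 h, 423.0 and 339.1 at 6 h, 357.3 and 363.8 at 12 h, and 365.8 and 407.1 at 24 h. In the first probe set both 6 h arrays lay above all others, and in the second the 6 h arrays lay on both sides of the 0 h arrays.

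At 6 h, where 1 of 7 tested retinoid probe sets was called against 18% of all tested probe sets (8.65% higher and 9.33% lower), 1419415_a_at was 0.50 ± 0.15 higher than at 0 h (1.42-fold, limma adjusted p = 0.0343). The other probe set of Rarg differed by 0.06 ± 0.14 (limma adjusted p = 0.802), so the 2 disagree at this time. The 6 h call was lost under several alternatives: with all probe sets in the fit (adjusted p = 0.0663), without a variance trend (0.0588), with only the 0 and 6 h arrays (0.0702), and without 0 h replicate 1 (0.279), 6 h replicate 1 (0.151), 24 h replicate 1 (0.0562) or 24 h replicate 2 (0.056). At 24 h the 2 probe sets differed from 0 h by 0.18 ± 0.15 and 0.09 ± 0.14, and neither passed (limma adjusted p = 0.379 and 0.675).

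Rarb (chr14:16430839-17082331) is the receptor gene best known as a direct target of retinoic acid, through a DR5 element just before the start of one of its transcripts. That element is shown here because it is the match found among the 14 windows, in capitals at bases 198 to 214 of the window chr14:16575427-16575726 on the - strand, starting at -53 relative to the annotated start in that window. That start lies inside the span given for Rarb, not at its upstream end.
Rarb: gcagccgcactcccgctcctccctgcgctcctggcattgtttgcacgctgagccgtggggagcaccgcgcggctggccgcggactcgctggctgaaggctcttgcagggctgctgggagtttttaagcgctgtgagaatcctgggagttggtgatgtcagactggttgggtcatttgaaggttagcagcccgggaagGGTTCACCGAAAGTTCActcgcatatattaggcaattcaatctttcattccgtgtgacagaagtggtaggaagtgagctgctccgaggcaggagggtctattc
DR5 was found in 32 of 32851 RefSeq windows of the same length (0.0974%), DR2 in 0.268%, DR1 in 0.222% and the p53 site in 0.0731%. A match is a description of the letters and says nothing about binding in these cells.

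Rarb had intensities of 37.3 and 38.9 at 0 h, 6.0 and 30.1 at 6 h, 26.1 and 38.7 at 12 h, and 14.2 and 5.5 at 24 h. Both 24 h arrays lay below both 0 h arrays, but all were under the level required for testing. With all probe sets in the fit, the 24 h difference from 0 h did not pass (limma adjusted p = 0.0992), nor did the F-test over the 4 times (adjusted p = 0.195).

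By comparison, counts of called retinoid probe sets ran as follows against the array as a whole. At 12 h against 0 h, 4 of 7 were called (2 higher, Dhrs3 and Aldh1a1, and 2 lower, both of Fabp5), where 24% of all tested probe sets were (12.1% higher and 11.9% lower). At 12 h against 6 h, 3 of 7 were called, beside 8.32% of all (4.61% higher and 3.71% lower). At 24 h against 12 h it was again 3 of 7, beside 6.88% (3.77% higher and 3.11% lower). In both of these the 3 were Dhrs3, higher, and the 2 probe sets of Fabp5, lower. With 7 probe sets for 5 genes these counts are small, and the 2 probe sets of Fabp5 count the same gene. Since the genes were chosen with earlier results of these data known, the counts are no test of the group.

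**Figure D3:**
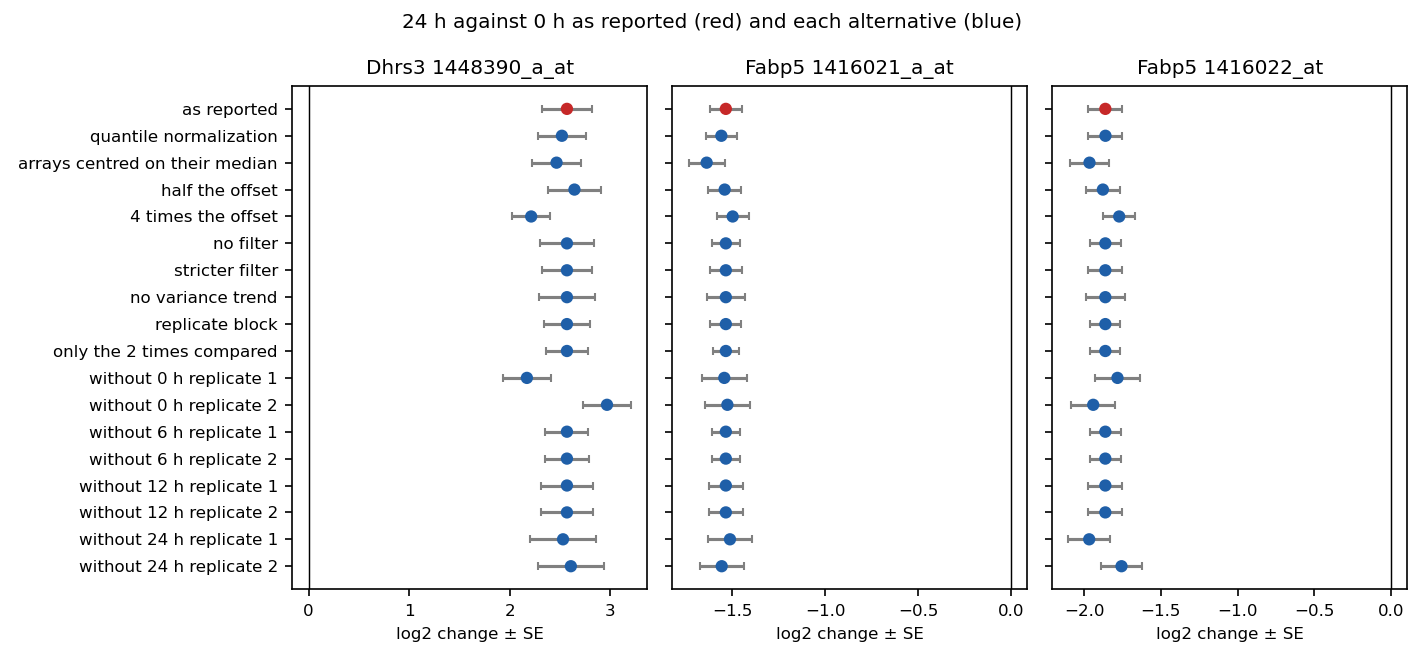
Difference at 24 h from 0 h on the log2 scale (horizontal axes, bars for the standard error) of Dhrs3 and the 2 probe sets of Fabp5, as reported in red and under each alternative way of processing in blue, 1 setting a line. Dhrs3 stays between 2.17 and 2.97 and the 2 probe sets of Fabp5 between -1.97 and -1.50.

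The rest of the pathway was read through lists of genes with known roles around these members, each gene by its brightest probe set, at 24 h against 0 h. These lists too were drawn up with earlier results of these data known. Over all 7707 tested genes, 42% were called in the F-test over the 4 times and 35.2% at 24 h, 18.6% higher and 16.6% lower, with a median change of 0.02 on the log2 scale. Of 27 retinol and retinal oxidoreductases, 21 were on the array and 10 were tested, of which 3 rose and 2 fell. Dhrs7, a short-chain dehydrogenase related to Dhrs3, rose by 1.11 ± 0.15 on the log2 scale (limma adjusted p = 0.000227), and its mean intensity was 699 at 24 h against 312 at 0 h. Rdh10, which oxidises retinol to retinal and works together with Dhrs3, rose by 0.53 ± 0.16 (limma adjusted p = 0.0237), a call that was lost with arrays centred on their medians (0.0662), with no filter (0.0515) and without any of the 0 h or 24 h arrays (0.0626 to 0.151). Adh5, an alcohol dehydrogenase, rose by 0.37 ± 0.10 (limma adjusted p = 0.0155). That call was also lost with centred arrays (0.0728) and without any of those 4 arrays. The retinal reductases Rdh11 and Rdh14 fell by 0.61 and 0.75 on the log2 scale (limma adjusted p = 0.0101 and 0.00435), and each lost its call when 0 h replicate 2 (Rdh11, 0.0864) or 0 h replicate 1 (Rdh14, 0.0577) was left out, Rdh11 also without 24 h replicate 1 (0.0811).

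Aox1, an aldehyde oxidase that can turn retinal into retinoic acid, was the 1 gene tested of its list and rose by 1.99 ± 0.19 on the log2 scale (limma adjusted p = 2.125e-05). Its mean intensities, in order of time from 0 h, were 102, 156, 288 and 469.6, each above the one before. Aldh1a3, the third retinal dehydrogenase, was dim, between 6.9 and 31.7 at 24 h and between 40.7 and 47.1 at 0 h. Of the genes of retinoic acid breakdown, 3 of 6 were on the array and none was bright enough to test: Cyp26a1, the hydroxylase that clears retinoic acid, lay between 18.7 and 42.9 at 24 h and between 33.1 and 40.7 at 0 h. Of 5 tested genes of retinol uptake and storage, 1 rose and 2 fell. Lrp1, a receptor that takes up retinoid-bearing remnants, rose by 0.64 ± 0.14, and Dgat1, which can esterify retinol, fell by 0.60 on the log2 scale (limma adjusted p = 0.00622 and 0.00698). Each of these calls was lost without 0 h replicate 2, and without 24 h replicate 1 for Lrp1 or 24 h replicate 2 for Dgat1 (adjusted p 0.0568 to 0.067). The second that fell was Dgat2, named after its values were seen, by 0.59 (limma adjusted p = 0.0476), a call lost without any of the 0 h or 24 h arrays (0.0535 to 0.284), with no filter (0.117) and with 4 times the offset (0.051). Stra6, the membrane receptor for retinol-binding protein, was dim, between 68.9 and 103.2 at 24 h and between 13.5 and 32.8 at 0 h, and with all probe sets in the fit this difference did not pass (limma adjusted p = 0.143).

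Of 9 tested partner receptors, 8 did not pass and 1 rose, Thra, a thyroid hormone receptor, by 0.46 ± 0.12 on the log2 scale (limma adjusted p = 0.0144), and that call was lost when either 0 h or either 24 h array was left out (0.0675 to 0.0849). The second probe set of Thra differed by 0.10 and did not pass (limma adjusted p = 0.8). Rxra and Rxrb, the usual partners of retinoic acid receptors, differed from 0 h by 0.02 ± 0.19 and 0.25 ± 0.12 and did not pass (limma adjusted p = 0.962 and 0.127), and Rxrg was dim. Of 15 tested coactivators and corepressors, 3 rose and 4 fell. Prmt1, an arginine methyltransferase that acts on histones and coactivators, fell by 1.29 on the log2 scale (limma adjusted p = 7.384e-06), and the methyltransferase Carm1 fell by 0.89 (limma adjusted p = 0.000492). Hdac3, the deacetylase of the receptor corepressor complex, fell by 0.42 (limma adjusted p = 0.014, lost without either 0 h array or 24 h replicate 2, 0.0684 to 0.107), and Cdk7, named after its values were seen, by 0.41 (limma adjusted p = 0.0246). That call of Cdk7 was lost without either 0 h array or 24 h replicate 2 (0.0572 to 0.187), and its second probe set differed by 0.07 and did not pass (limma adjusted p = 0.845). The acetyltransferase Kat2b rose by 0.78 ± 0.10, the corepressor Nrip1 by 0.61 ± 0.13 and Trim24, a cofactor that binds the receptors' ligand domain, by 0.45 ± 0.13 (limma adjusted p = 0.000163, 0.00416 and 0.0192). The second probe set of Kat2b differed by 0.56 and did not pass (limma adjusted p = 0.054). Nrip1 lost its call without 0 h replicate 1 (0.0539). Trim24 lost its call with centred arrays (0.0772) and without either 0 h array or 24 h replicate 1 (0.06 to 0.161), and its second probe set differed by -0.14 and did not pass.

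**Figure D4:**
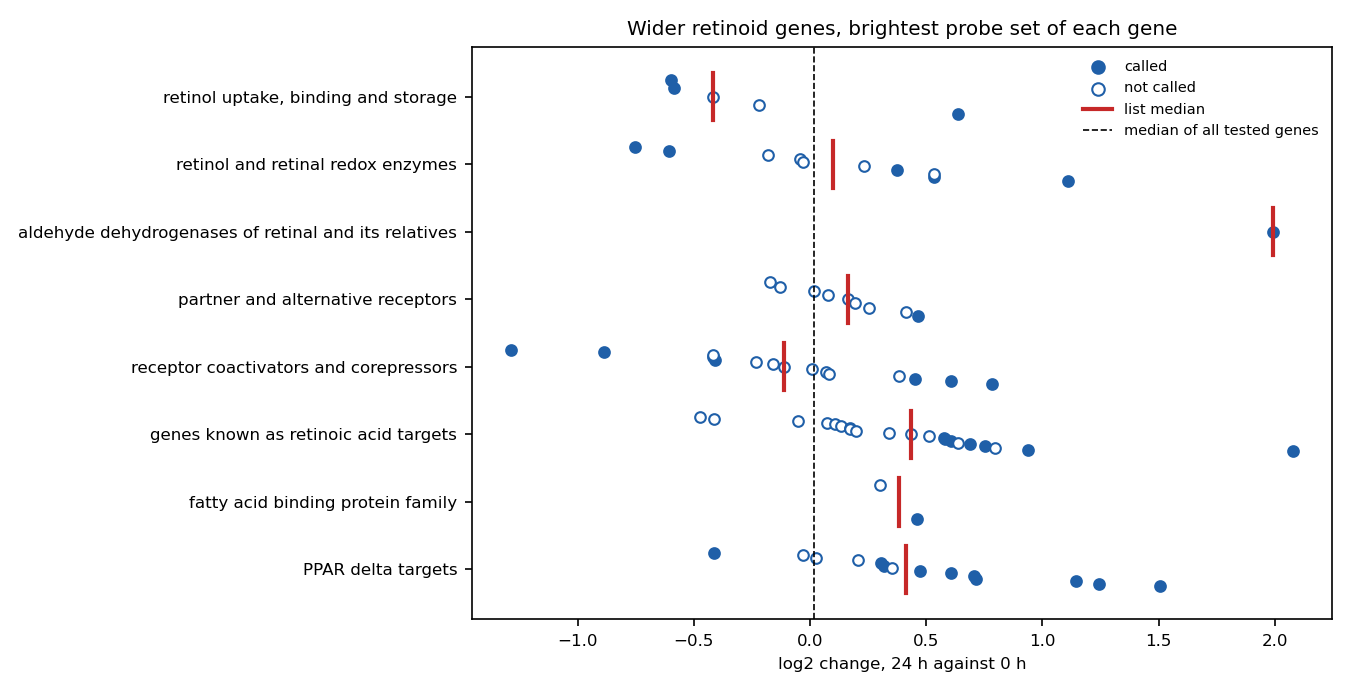
Change at 24 h against 0 h on the log2 scale (horizontal axis) of each tested gene of 8 lists around the retinoid pathway (rows), with filled points for called genes and open points for the others, a bar at each list's median and a dashed line at the median of all tested genes. Genes of oxidoreductases and coregulators lie on both sides of the dashed line, while most known retinoic acid targets and PPAR delta targets lie to its right.

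Of genes known as retinoic acid targets, 21 of 37 on the array were tested, with a median of 0.43 on the log2 scale at 24 h, against 0.02 over all genes. At 6 h and 12 h against 0 h the list median was -0.02 and -0.05. Stra8 and Hoxb1, named after their values were seen, were too dim to test. At 24 h 7 rose and 14 did not pass, where 35.2% of all genes were called, 18.6% higher. Among the 7 was Btg2, an antiproliferative gene that p53 is also known to induce, which rose by 2.08 ± 0.14 (limma adjusted p = 2.109e-06). The transcriptional repressor Bhlhe40 rose by 0.75 ± 0.15 (limma adjusted p = 0.00268) and Foxa2, a forkhead factor, by 0.58 ± 0.10 (limma adjusted p = 0.00148). Col4a2, a basement membrane collagen that was called in the F-test over the 4 times, stood 0.11 ± 0.13 from 0 h at 24 h and did not pass (limma adjusted p = 0.555). It was called lower at 6 h, by -0.70 (limma adjusted p = 0.00379), and at 12 h, by -0.45 (limma adjusted p = 0.0243). The 12 h call was lost under 4 of 17 alternatives. Nrip1 stands in this list and in that of the coregulators. Of the targets of PPAR delta, to which Fabp5 passes its ligand, 14 of 17 on the array were tested: 9 rose and 1 fell, with a median of 0.41. Ppard, the gene of that receptor, was itself dim, between 3.4 and 4 at 24 h and between 2.7 and 4.7 at 0 h. Angptl4, an inhibitor of lipoprotein lipase, rose by 1.51 ± 0.15 (limma adjusted p = 3.779e-05), the lipid droplet protein Plin2 by 1.24 ± 0.10 (6.291e-06) and Cpt1a, which brings fatty acids into mitochondria, by 1.14 ± 0.12 (3.687e-05). Txnip, the thioredoxin-binding protein, rose by 0.72 ± 0.12 and Ech1, an enzyme of fatty acid breakdown, by 0.61 ± 0.09 (limma adjusted p = 0.00111 and 0.000638). The 1 that fell was Ilk, a kinase of cell adhesions named after its values were seen, by 0.41 on the log2 scale (limma adjusted p = 0.0197). That call was lost without any of the 0 h or 24 h arrays and without a variance trend (0.0505). At 6 h against 0 h, where Fabp5 was not called, 3 of these targets were called higher and 1 lower, with a median of 0.20. Over all genes 18.5% were called there. Angptl4 already stood 2.04 above 0 h at 6 h. The target called lower at 6 h was Txnip, by -0.41. That call was lost with no filter (limma adjusted p = 0.0584), without a variance trend (0.0615) and with only the 2 times compared (0.0798). It was also lost without any 1 of the 0, 6 or 24 h arrays, with changes between -0.54 and -0.29. A link of these genes to Fabp5 was not tested. Of the other fatty acid binding proteins and acyl-CoA binding genes, Acbd3 rose by 0.46 ± 0.14 (limma adjusted p = 0.0242) and the second tested gene did not pass. That call of Acbd3 was lost with quantile normalization (0.05) or centred arrays (0.0841) and in 3 of the fits that left out a 0 h or 24 h array (0.0774 to 0.18), and its 2 other probe sets, at 0.38 and 0.22, did not pass.

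The Sertoli label was held against marker genes. Of 26 Sertoli markers on the array 10 were bright enough to test, among them Sox9, Wt1 and Gata4, with mean intensities of 183.5, 139 and 585 at 24 h against 138, 171 and 556 at 0 h. Amh and Fshr were dim, at 11.2 and 37.4 at 24 h and 8.8 and 42.2 at 0 h, as the means. Dmrt1, Rhox5, Cldn11, Gdnf and Dhh were also too dim to test, and the 10 tested include Vim, Krt18 and Ctsl. The summed intensity of the Sertoli markers lay between 31491.7 and 31940.8 at 24 h and between 31260.3 and 31587.2 at 0 h. Most of that sum came from genes other than Sox9, Wt1 and Gata4, so it says little about these 3. At 24 h against 0 h 2 of the 10 rose, where 35.2% of all tested genes were called, 18.6% higher. They were Clu, by 1.44, and Inhbb, by 0.51 on the log2 scale (limma adjusted p = 3.628e-05 and 0.0188). Inhbb lost its call without 0 h replicate 1 or either 24 h array, with changes between 0.40 and 0.53. The second probe set of Inhbb differed by 0.53 and did not pass (limma adjusted p = 0.23). Genes in this paragraph other than Sox9, Wt1, Gata4, Amh and Fshr were named after their values were seen. Markers of other cell types were mostly dim, and the brightness filter was passed by 1 of 12 germ cell markers, 2 of 6 Leydig markers, 3 of 9 myoid, 3 of 9 macrophage and blood and 1 of 7 endothelial markers. Of these, Kit, a receptor tyrosine kinase of germ cells, rose by 1.96 ± 0.17, the steroidogenic protein Star by 1.18 ± 0.24 and the lysosomal protein Cd68 by 0.59 ± 0.18 at 24 h (limma adjusted p = 1.355e-05, 0.00327 and 0.0306), and the others did not pass. Cd68 lost its call without 0 h replicate 1 or either 24 h array (0.098 to 0.221), with no filter (0.0779) and with quantile normalization (0.0617) or centred arrays (0.0677). The summed germ cell markers stood between 1567.1 and 1581.3 at 24 h and between 555.9 and 732.6 at 0 h, and the summed Leydig markers between 622.6 and 683.8 at 24 h and between 464.6 and 566.1 at 0 h. The summed myoid markers stood between 544.5 and 661 at 24 h and between 579.8 and 625.8 at 0 h. The summed macrophage and blood markers stood between 700.7 and 725.3 at 24 h and between 576.9 and 688.5 at 0 h, and the endothelial ones between 287.3 and 326.9 at 24 h and between 254.2 and 283 at 0 h. Germ cell, Leydig, macrophage and endothelial sums were higher at 24 h alongside Dhrs3 and Aldh1a2, but each list held few genes bright enough to test. The germ cell list had Kit alone, and the endothelial list Eng, which differed by 0.10 and did not pass (limma adjusted p = 0.846). Beside Star, the Leydig marker Nr5a1 differed by -0.04, and beside Cd68, Csf1r differed by -0.38 and Cd14 by -0.13. These sums are therefore no measure of the share of a cell type, and their part in the changes of Dhrs3 and Aldh1a2 was not tested.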

How the data were processed

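Total RNA of 8 TTE3 samples was labelled with biotin and hybridised to 1 array each, per the labels' protocols. The authors deposited 1 linear intensity per probe set and array (lowest 0.1, highest 38130.2), made with software not given in the sources used here. Their mean after trimming 2% at each end was 500.2 on every array, so the deposited arrays had been scaled alike. Probe sets were named from the platform annotation, updated through RefSeq for GRCm38.p6: 20380 had 1 symbol (20351 matched), 691 several and 1555 none. RefSeq also gave positions and promoter sequences.

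From these, log2(intensity + 22) was computed, the offset being the 20th percentile. Probe sets with a mean under the 40th percentile (6.59 on the log2 scale, about 74.1 intensity units) were left out, leaving 13576. Arrays were not normalised again, since array medians differed by 0.14 or less on the log2 scale. One linear model over the 8 arrays and 4 times was fitted (lmFit, then eBayes with a variance trend, in limma 3.58.1 under R 4.3.3), with 4 residual and 7.22 prior degrees of freedom. P-values of the moderated F-test and 2-sided contrasts had Benjamini-Hochberg adjustment across those 13576, and the procedure was tested on simulated data. Figures were drawn with matplotlib 3.10.9 in Python 3.11.15.

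The retinoid genes and all gene lists were chosen with earlier results of these data known. All retinoid probe sets were named whatever their values. From each other list, up to 5 genes with the smallest p among those called in the F-test were named, with a few fixed genes (Cyp26a1, Stra6, Rdh10, Aldh1a3 and the retinoid X receptors; Cyp26b1 had no probe set matched here). Samples of a time were numbered alike, but differences between replicates 1 and 2 correlated between times with r from 0.0496 to 0.18, so the numbers were not taken as pairs. The precision is limited by the 2 arrays of each time. Alternatives covered the offset, the filter, normalization, variance trend, replicate block, the samples fitted, the probe set of a gene and each array left out.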

Additional observations from a re-analysis of the deposited data

How the results depend on the processing

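For 42 probe sets, those tested of the retinoid genes and of the named genes, 3548 values were recomputed: 3264 kept their side of the threshold, 262 lost their call and 22 gained one. Of the 3007 that have a direction, 41 changed sign, each of them called neither as reported nor under the alternative. The other genes of the lists, Dbi among them, were not recomputed one by one. Dhrs3 and Fabp5 at 24 h against 0 h kept theirs under all 17 alternatives. Aldh1a1 gained an F-test call with a stricter filter (adjusted p = 0.0444) and without either 6 h array (0.0161 to 0.0184), and Rarg 1419415_a_at without 6 h replicate 2 (0.0457).

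At 6 h against 0 h, 0 retinoid probe sets were called by limma with no filter, no variance trend or only the 2 times compared, while 1 had an unadjusted p under 0.05 in each. At 12 h against 6 h, 1130 probe sets were called over the array, and 644 with no filter, 607 without a variance trend and 240 with only the 2 times. At 24 h against 12 h the count was 934, and 529 with no filter and 369 without a variance trend. Leaving out 1 array at a time gave 3303 to 6608 calls in the F-test (5447 with all), 836 to 3003 at 6 h against 0 h (2441), 1523 to 4148 at 12 h against 0 h (3257), 2595 to 5191 at 24 h against 0 h (4472), 330 to 1552 at 12 h against 6 h (1130) and 84 to 1645 at 24 h against 12 h (934). The retinoid probe sets called were then 3 to 5, 0 to 1, 3 to 4, 3 to 3, 3 to 3 and 2 to 3 in the same order.

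With a replicate block, 5982, 2813, 3648, 4832, 1463 and 1212 probe sets were called in that order, the retinoid counts did not move, and 3 of 212 single values gained a call. Centring arrays on their medians shifted all 24 h changes by -0.10, and calls at 24 h against 0 h that were higher made up 37.5%, beside 52.0% as reported (40.4% beside 50.5% at 12 h, and 42.2% beside 54.8% at 24 h against 12 h). The median over a gene's probe sets has no F-test. Dim probe sets are limited by an unknown background.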

Other observations

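Of the wider pathway genes, 62 were too dim to test. With all probe sets in the fit, 3 of them were called higher at 24 h than at 0 h, where 2.46% of all 9050 dim probe sets were called in either direction. They were picked after their values were seen. Aox3, a liver-type aldehyde oxidase next to Aox1 in function, lay between 41.6 and 50.7 at 24 h and between 2.9 and 4.5 at 0 h (limma adjusted p = 0.00262). Vdr, the vitamin D receptor that also pairs with retinoid X receptors, lay between 50.8 and 61.1 at 24 h and between 3.7 and 12.7 at 0 h (limma adjusted p = 0.0114). Lpl, the lipoprotein lipase that releases retinyl esters for uptake, lay between 34.4 and 41.9 at 24 h and between 5.2 and 8.1 at 0 h (limma adjusted p = 0.0488).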
